A study of Mus musculus with 44 samples.

Results

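Control maturing follicles are the ovarian follicles that received the solvent DMSO and no PFNA during the maturation window. RNA sequencing of 11 such samples, of 44 in the series, is described here. They were chosen by their label and by the columns of the deposited maturation table. All 11 came from wild-type CD-1 mice, an outbred laboratory strain, with ovary as the tissue, and the labels give no age, gonadotropin dose, exposure time or date. The series exposed follicles to perfluorononanoic acid (PFNA), one of the per- and polyfluoroalkyl substances, during gonadotropin-dependent growth or during ovulation induced with hCG, and the exposed samples are not used here. The labels do not say how many follicles entered a sample, or whether the samples came from separate cultures or animals, so p-values measure only the spread between these samples, which may be technical. Replicate numbers are those of the sample titles. The numbers run from 1 to 12 without 4, and the column taken as replicate 6 differs from that sample's title by a letter.

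An ovarian follicle holds an oocyte surrounded by granulosa cells, with a basement membrane and theca cells outside them. Follicle-stimulating hormone (FSH) acts through Fshr on granulosa cells, which then make inhibins and activins, convert theca androgens to estrogens with aromatase (Cyp19a1), and gain the luteinizing hormone receptor Lhcgr as the follicle matures. The oocyte secretes Gdf9 and Bmp15, which act back on the granulosa cells, and communicates with them through gap junctions.

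The values are TPM (transcript abundance scaled to a total of 1000000 per library), a level per transcript length, so levels of different genes can be set side by side and the number of reads behind them is unknown. Of 22674 genes, 13599 had a mean of at least 1 TPM and 9291 of at least 5 TPM. Between 12981 and 13853 genes reached 1 TPM in a library, and the 10 most abundant genes held between 23.1% and 28.5% of a library's TPM. Pearson correlations between libraries, on log2(TPM + 1), lay between 0.944 and 0.973. In bulk samples such as these, fewer cells of a type and less RNA per cell cannot be told apart. Replicate 11 stood apart: its deviations from the mean of the 11 libraries fell with transcript length (Spearman correlation across genes -0.488). In the other libraries that correlation lay between -0.148 and 0.270. Transcripts over 6000 bases had a median log2 deviation of -0.50 in replicate 11. A gene's low level in replicate 11 is therefore read beside its length.

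The inhibin subunits Inha and Inhbb had the highest means of the named genes, at ranks 5 and 9 among all genes. Inha, the inhibin alpha subunit, averaged 34970 ± 4487 TPM (SD, n = 11). It ran from 26233 TPM in replicate 8 to 43694 TPM in replicate 3, with a median of 34768 TPM. Inhbb, a beta subunit that joins Inha in inhibin B or itself in activin B, came next at 9173 ± 1394 TPM, lowest in replicate 11 (6575 TPM) and highest in replicate 3 (10799 TPM). The other beta subunit, Inhba, averaged 3590 ± 852 TPM, from 2519 TPM in replicate 7 to 5013 TPM in replicate 10. The libraries therefore ordered differently for the subunits: replicate 3 was highest for Inha and Inhbb, and replicate 10 for Inhba. The genes lie on mouse build GRCm38 at chr1:75507077-75510366 (Inha), chr1:119415465-119422248 (Inhbb) and chr13:16011851-16031621 (Inhba).

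Enzymes of steroid synthesis also stood among the 25 named genes of highest mean. Hsd3b1, which makes progesterone from pregnenolone, averaged 5965 ± 675 TPM (SD, n = 11), and Hsd17b1, which converts estrone to estradiol, averaged 4561 ± 529 TPM. Both were lowest in replicate 8, at 4593 and 3600 TPM, and highest in replicate 3, at 6990 and 5487 TPM. Gja1, the connexin 43 of granulosa gap junctions, averaged 2732 ± 349 TPM. The remaining genes of the 25 were mostly those that many cell types hold at high levels: the actins Actg1 (4857 ± 880 TPM) and Actb (4766 ± 693 TPM), the cytokine Mif (5032 ± 478 TPM), the ferritin light chain Ftl1 (4468 ± 329 TPM), the elongation factors Eef1a1 (4187 ± 265 TPM) and Eef2, ribosomal proteins, and the chaperone Hspa5. Nap1l5, an imprinted gene of the nucleosome assembly protein family, was high in 10 libraries, at 5693 to 7598 TPM, and lower in replicate 8, at 3142 TPM. The 25 held 13.5% of all TPM. A further 14 genes that are not named here had means above the lowest of the 25, and 7 of those match mitochondrial transcripts. In 5 of the 25 (Ftl1, Rpl34-ps1, Rplp1, Rps3a2 and Ubb) at least 50% of the transcript's 31-base words also occur in other genes, so their levels depend on how shared reads were assigned.

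The 4 genes that mark the cells differed widely in level. Foxl2, a transcription factor that maintains granulosa cell identity, averaged 1172 ± 158 TPM (SD, n = 11), with a lowest value of 905 TPM in replicate 11, a median of 1147 TPM and a highest value of 1475 TPM in replicate 3. Fshr averaged 6.60 ± 1.30 TPM, from 4.93 TPM in replicate 8 to 9.82 TPM in replicate 6, with a median of 6.43 TPM. Cyp19a1 averaged 22.4 ± 4.46 TPM, from 17.2 TPM in replicate 7 over a median of 21.9 TPM to 30.6 TPM in replicate 10. In order of level these marks run Inha, Foxl2, Cyp19a1 and Fshr, and no library's value of any of them reached that of the next mark up. The genes lie at chr9:98955288-98958543 (Foxl2), chr17:88984952-89200675 (Fshr) and chr9:54165937-54268110 (Cyp19a1).

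All 15 granulosa markers had a mean above 1 TPM, and together they held 58948 TPM, from 47384 TPM in replicate 8 to 72001 TPM in replicate 3. Fst, the activin-binding protein follistatin, was present at 1639 to 3317 TPM. Gata4 (88.4 to 122 TPM), Amhr2, the receptor for anti-Müllerian hormone (129 to 172 TPM), and Esr2, the estrogen receptor beta (16.5 to 23.5 TPM), were even between libraries. Amh and Kitl were not. Amh, which granulosa cells of small growing follicles secrete, lay at 105 TPM in replicate 10, 46.5 TPM in replicate 8 and 34.0 TPM in replicate 9, and its median was 11.2 TPM with a lowest value of 1.78 TPM in replicate 5. Kitl, the ligand by which granulosa cells act on the oocyte's Kit receptor, ran from 5.38 TPM in replicate 1 over a median of 14.9 TPM to 39.3 TPM in replicate 10. Replicate 10 was thus the highest library for Amh, Kitl, Cyp19a1 and Inhba alike.

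Markers of antral and preovulatory granulosa cells were present, with larger spread. Lhcgr had a median of 56.4 TPM and ran from 26.5 TPM in replicate 12 to 119 TPM in replicate 3, with replicates 8 and 9 also low at 29.9 and 30.9 TPM. Nppc, which encodes the natriuretic peptide that holds the oocyte in meiotic arrest, had a median of 288 TPM, a lowest value of 142 TPM in replicate 8 and a highest of 516 TPM in replicate 11. Cyp11a1, the enzyme that cleaves the cholesterol side chain, had a median of 115 TPM and ran from 65.5 TPM in replicate 2 to 238 TPM in replicate 10. Star, the carrier of cholesterol into mitochondria, lay between 9.92 and 21.8 TPM in 9 libraries, at 36.1 TPM in replicate 6 and at 63.8 TPM in replicate 10. Ccnd2, the cyclin that FSH induces, lay between 78.5 and 166 TPM, Scarb1 between 56.5 and 97.2 TPM and Prlr between 12.3 and 29.3 TPM.

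Theca markers (9 genes) summed to 402 TPM on average, beside 760 TPM for the 8 antral granulosa markers. Replicates 6 and 10 stood above the rest for the steroid and peptide hormone genes of the theca. Cyp17a1, the theca enzyme that makes androgens, had a median of 145 TPM. It was highest in replicates 10 (355 TPM) and 6 (264 TPM) and lowest in replicate 8 (73.5 TPM). Insl3, a peptide hormone of theca cells, had a median of 101 TPM and was likewise highest in replicates 10 (463 TPM) and 6 (370 TPM). Those 2 libraries do not overlap the other 9 for either gene: the next highest values were 207 TPM for Cyp17a1 in replicate 7 and 165 TPM for Insl3 in replicate 12. The hedgehog targets that mark theca cells went another way. Ptch1 (7.36 to 19.3 TPM) and Gli1 (3.33 to 15.4 TPM), like Notch3 (3.41 to 15.8 TPM), were highest in replicate 8, the library with the lowest Cyp17a1. Hhip and Fbln5 stayed at or below 1.12 and 0.911 TPM.

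Oocyte growth factors and maternal transcripts were detected in every library. Gdf9 averaged 40.6 ± 5.15 TPM (SD, n = 11), from 32.8 TPM in replicate 11 to 49.8 TPM in replicate 5. Bmp15, its partner, ran from 20.2 TPM to 39.0 TPM, lowest and highest in those same 2 libraries. Bcl2l10 (28.7 to 63.0 TPM), Tle6 (30.0 to 43.7 TPM), Zar1 (21.6 to 36.2 TPM), Khdc3 (18.8 to 43.3 TPM) and Ooep (20.9 to 43.0 TPM), which growing oocytes accumulate, lay in the same range. The zona pellucida genes were lower, at 5.25 to 13.3 TPM for Zp1, 4.94 to 14.8 TPM for Zp2 and 10.7 to 25.8 TPM for Zp3, with replicate 7 the highest for Zp2 and Zp3. Summed over the 25 oocyte genes in the table, the level averaged 392 TPM, from 298 TPM in replicate 11 to 459 TPM in replicate 5. Sohlh1, a transcription factor of primordial and primary oocytes, was the exception: it is listed at 0 in 6 libraries (replicates 1, 2, 3, 5, 6 and 9), at 0.283 and 0.406 TPM in replicates 10 and 11, and at 4.55, 5.44 and 3.90 TPM in replicates 7, 8 and 12. Figla, active at the same stages, was highest in replicates 8 and 12 too, at 1.53 and 2.15 TPM, and Ddx4 stayed at or below 0.249 TPM.

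**Figure D1:**
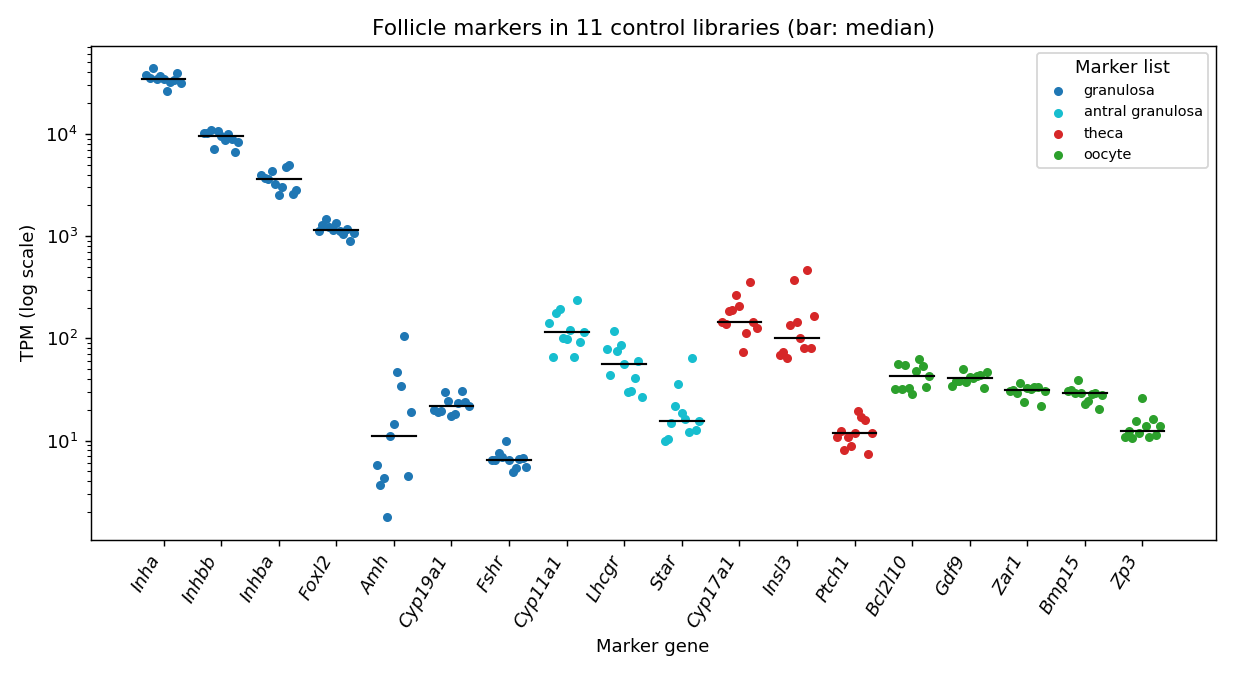
Level of 18 granulosa, antral granulosa, theca and oocyte markers (log axis, TPM), with a point for each of the 11 control libraries in order of replicate number and a bar at the median. Inha lies above every other marker in each library, and Cyp17a1 and Insl3 have 2 high points, replicates 6 and 10.

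The highest library's list sum was 4.90 times the lowest for stroma markers, 9.09 times for pericyte, 20.4 times for endothelial and 37.8 times for immune markers. The same ratio was 1.52 for granulosa, 1.54 for oocyte and 3.57 for theca markers. Collagens of stroma and theca connective tissue were lowest in replicates 3 and 6 and highest in replicates 8 and 12: Col1a1 ran from 38.6 TPM in replicate 6 over a median of 107 TPM to 320 TPM in replicate 8, and Col3a1 from 39.5 to 259 TPM in those same libraries. Cldn5, a tight junction protein of endothelial cells, ran from 2.62 TPM in replicate 1 over a median of 45.3 TPM to 161 and 177 TPM in replicates 8 and 12. Cdh5, the endothelial cadherin, lay between 2.58 and 33.7 TPM. Other endothelial markers differed in level: Pecam1 lay between 0.216 and 4.99 TPM and Tek at or below 0.517 TPM, while the receptor Tie1 ran from 0.189 to 20.2 TPM.

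Summed over each list, the same libraries stood at the ends. Stroma markers (10 genes, of which Tcf21 is also a theca marker) summed to 233 TPM in replicate 3 and 1140 TPM in replicate 8, with a median of 523 TPM. Endothelial markers (10 genes) summed to 13.6 TPM in replicate 6, 277 TPM in replicate 12 and 278 TPM in replicate 8. Smooth muscle and pericyte markers (8 genes) summed to 17.9 TPM in replicate 6 and 163 TPM in replicate 8. Surface epithelium markers (7 genes) reached 46.1 and 26.7 TPM in replicates 8 and 12, against at most 2.90 TPM in the other 9 libraries: Krt19, a keratin of that layer, was at 9.72 and 7.87 TPM there and at or near 0 elsewhere. Immune markers ordered the libraries differently, from 2.74 TPM in replicate 3 to 104 TPM in replicate 7. Lyz2, the lysozyme of macrophages, was listed at 0 in replicate 3 and reached 60.8 TPM in replicate 2, while Ptprc (CD45), carried by all leukocytes, did not exceed 0.160 TPM. The granulosa sum was lowest in replicate 8 and highest in replicate 3, with Inha alone giving 34970 of its 58948 TPM on average. The mean log2 deviation over the 15 granulosa markers, which weighs each gene equally, gave another order: it was -0.02 in replicate 8 and 0.01 in replicate 3, lowest in replicate 11 (-0.25) and highest in replicate 10 (0.41).

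**Figure D2:**
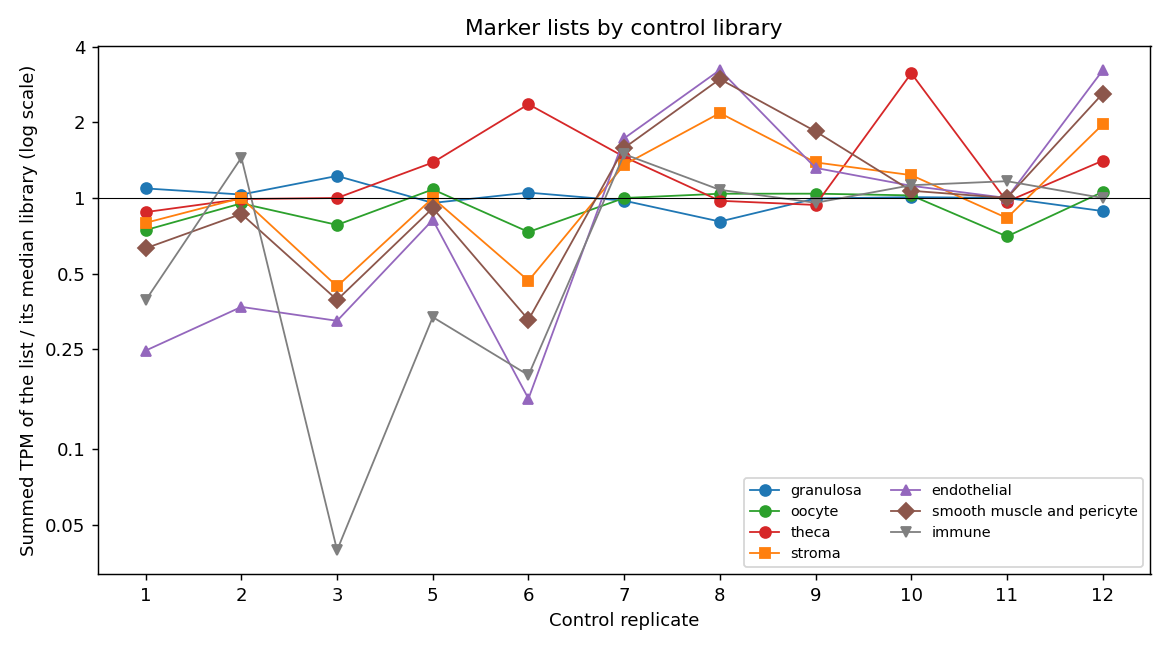
Summed TPM of 7 marker lists in each of the 11 control libraries, divided by the sum in that list's median library (log axis). Endothelial, smooth muscle and pericyte, and stroma sums are highest in replicates 8 and 12, the theca sum in replicate 10 and the immune sum in replicate 7. Granulosa and oocyte sums stay close to the median library.

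The components of variation separated the same libraries. The first principal component of log2(TPM + 1) held 22.5% of the variance, with scores of 34.5 and 32.4 in replicates 8 and 12 at one end and -33.5, -32.9 and -25.4 in replicates 3, 6 and 1 at the other. Genes most correlated with it were S1pr3, a sphingosine-1-phosphate receptor (1.16 TPM in replicate 3 to 16.1 TPM in replicate 12), Tgfb1, Cnn2, Kank3, Tnfrsf1a and the matrix proteoglycan Bgn (12.6 to 88.2 TPM). Genes most correlated against it were Tox2 (29.9 TPM in replicate 8 to 50.6 TPM in replicate 6), Pdhb, Psd, Hspa5, Tipin and Wapl. Since the component was built from these genes, the correlations are a description.

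Members of a marker list mostly lay on the same side of this component. Correlations above 0.6 with the component were found for 8 of 10 stroma, 8 of 8 endothelial, 5 of 5 smooth muscle and pericyte, 5 of 7 theca, 5 of 7 immune and 11 of 23 oocyte markers, and for 13 of 24 extracellular matrix genes, against 11.5% of all genes. Correlations below -0.6 were found for 24 of 32 proliferation genes and 5 of 15 granulosa markers, against 5.22% of all genes. No member of the granulosa, antral granulosa or proliferation lists lay above 0.6. Proliferation genes summed to 1261 TPM in replicate 8 and to 1985 TPM in replicate 6, so the library with the highest stroma and endothelial sums had the lowest of theirs.

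The second component held 15.3% of the variance and was led by a single library, replicate 11, with a score of 51.9. Genes lowest there were long: Kif5b, a kinesin heavy chain, was at 30.3 TPM in replicate 11 and at 42.9 to 60.9 TPM in the other 10 libraries. Genes highest there were mostly short, such as Rpl10 of the ribosome (930 bases) and Rnasek (779 bases). Rack1, also of the ribosome and highest there, was an exception, with a longest transcript of 4456 bases. Across genes the correlation with this component had a Spearman correlation of -0.611 with transcript length, and genes above 0.6 had a median transcript of 1037 bases against 4664 bases for genes below -0.6.

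**Figure D3:**
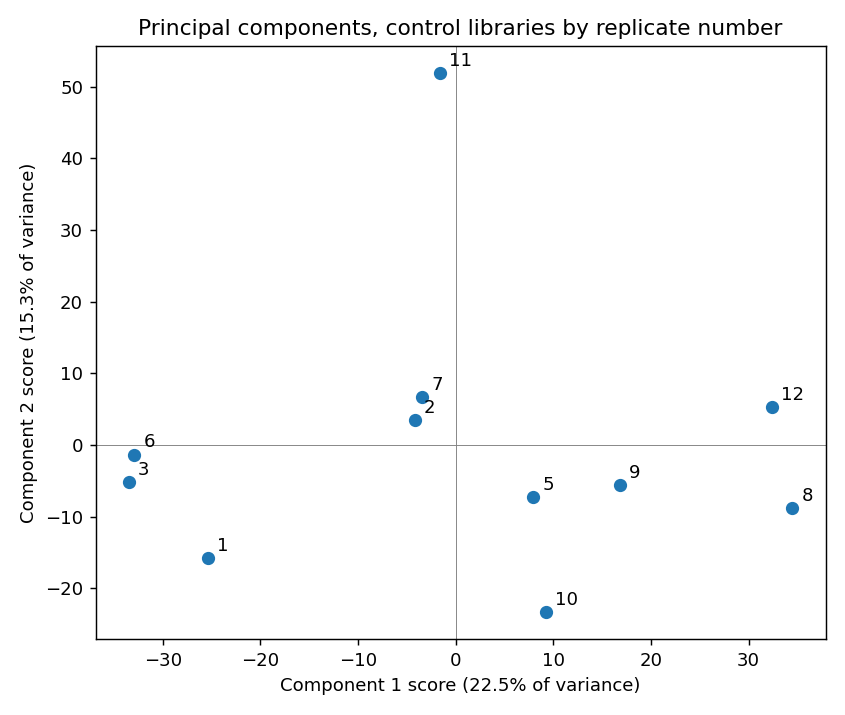
Scores of the 11 control libraries on the first 2 principal components of log2(TPM + 1), each point numbered by replicate, with the share of variance on the axes. Replicates 8 and 12 lie at the high end of the first component, replicates 1, 3 and 6 at its low end, and replicate 11 lies alone on the second.

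Grouping the 500 genes of largest spread by their correlation gave 12 groups of at least 10 genes, which held 326 of them. The largest, of 149 genes with a mean correlation of 0.752, held the markers named above: 5 stroma (Col1a1, Col3a1, Dcn, Bgn and Mgp), 4 endothelial (Cdh5, Tie1, Esam and Cldn5), 4 smooth muscle and pericyte (Acta2, Tagln, Pdgfrb and Cspg4) and 3 immune markers (Lyz2, C1qa and C1qc). Its leading genes were Rgs4, Ltbp4, Pdgfrb, S1pr3, Cygb and Tmsb4x. Cygb, a globin of fibroblast-like cells, ran from 10.3 TPM in replicate 6 to 130 TPM in replicate 8, and Tmsb4x, an actin-binding peptide, from 106 TPM in replicate 6 to 720 TPM in replicate 12. A group of 37 genes was highest in replicate 3 and lowest in replicate 8. Of the 37, 15 were annotated as pseudogenes, beside 5.80% of all genes of at least 5 TPM. The group's mean log2 deviation was also high in replicates 1, 6 and 7 (1.22, 1.09 and 0.97), and replicate 7 was above 0 in the largest group too (0.27). This group of 37 held Lhcgr, and Ackr1, an atypical chemokine receptor, ran there from 0.528 TPM in replicate 8 to 17.6 TPM in replicate 3.

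Smaller groups turned on other libraries. Amh shared a group of 11 genes with G0s2, Adm2, Chp2 and Serpina3n, highest in replicate 10. Hspa1b, an inducible heat shock protein, shared a group of 11 genes with the homeobox genes Hoxc9 and Hoxc10. Mt3, a metallothionein, lay in a group of 23 genes with Tpm3 and Cav1, and was at 5.11 and 6.32 TPM in replicates 1 and 3 against 18.2 to 71.8 TPM in the other libraries. Groups and components were formed on the same 11 libraries and carry no test.

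To ask which genes varied with a marker, each of 13598 genes was fitted on the log2(TPM + 1) of an anchor gene with limma, and an adjusted p under 0.05 was called. A slope is the log2 difference in a gene's level per log2 unit of the anchor. With Inha as the anchor, matrix, stroma and pericyte genes were lower where Inha was higher: 347 genes were called (2.55%), 30 moving with Inha (0.221%) and 317 against it (2.33%). Nppc moved with Inha with a slope of 2.53 ± 0.394 (SE, limma adjusted p = 0.0251, n = 11 libraries). Csrp2, a LIM protein, ran from 30.3 TPM in replicate 8 over a median of 42.4 TPM to 73.3 TPM in replicate 3, with a slope of 1.83 ± 0.276 (limma adjusted p = 0.0251). Both were lowest in replicate 8, the library with the lowest Inha.

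Itga6, an integrin that binds laminin in the basement membrane, ran against Inha, from 3.67 TPM in replicate 3 over a median of 7.96 TPM to 18.2 TPM in replicate 8 (slope -3.16 ± 0.324 SE, limma adjusted p = 0.00919). Of the lists, 5 of 10 stroma markers (Bgn, Col1a1, Col1a2, Col3a1 and Pdgfra), 3 of 5 smooth muscle and pericyte markers (Cspg4, Des and Pdgfrb), 3 of 7 theca markers (Gli1, Notch3 and Ptch1), 2 of 8 endothelial markers (Cdh5 and Kdr) and 12 of 24 matrix genes, among them Fn1, Col4a1, Col4a2, Nid1 and Nid2 of the basement membrane, were called against Inha. The slope of Col1a1 was -4.18 ± 0.780 (SE, limma adjusted p = 0.0278). Called with it were Hsd17b1 of the granulosa list (1 of 14) and Lhcgr and Nppc of the antral granulosa list (2 of 8). The median correlation with Inha was -0.77 over the stroma list and -0.78 over the matrix list, beside -0.17 over all genes.

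Those calls rested on few libraries. Without replicate 8 limma called 0 genes with Inha, and without replicate 3 or replicate 12 it called 3 genes each. Without replicate 1, 2, 5, 7 or 9 it called 129, 215, 215, 209 and 153 genes. The median correlation over the stroma list without replicate 8 was -0.76. Median-ratio scaling, with log2 size factors of -0.25 in replicate 11 to 0.11 in replicate 10, called 149 genes, 76 with Inha and 73 against it, of which 72 were among the 347. Under that scaling 1 of 10 stroma, 2 of 7 theca and 5 of 24 matrix genes were still called, all of them against Inha, and 4 of 32 proliferation genes were called with it.

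With Lhcgr as the anchor, 308 genes were called (2.27%), 32 with it (0.235%) and 276 against it (2.03%). Inha was among those that moved with Lhcgr, as were Scara5, a scavenger receptor (slope 0.70 ± 0.106 SE, limma adjusted p = 0.0133), Mro (71.2 TPM in replicate 12 to 140 TPM in replicate 3) and Ackr1. Foxs1, a forkhead factor of perivascular cells, moved against it, from 8.99 TPM in replicate 3 over a median of 31.9 TPM to 120 TPM in replicate 12 (slope -1.44 ± 0.144 SE, limma adjusted p = 0.00327). Txnip, an inhibitor of thioredoxin, also moved against it, from 325 TPM in replicate 3 to 779 TPM in replicate 12. Called against Lhcgr were 5 of 10 stroma markers (Bgn, Col1a1, Col1a2, Col3a1 and Mgp), 3 of 5 smooth muscle and pericyte markers (Acta2, Pdgfrb and Tagln), 8 of 24 matrix genes, the complement genes C1qa and C1qb of the immune list (2 of 7) and Gli1 of the theca list. Without replicate 12 the count was 5, without replicate 8 it was 24 and without replicate 3 it was 25. Without replicates 1, 6, 9 and 10 in turn it was 146, 88, 199 and 204. Median-ratio scaling called 217 genes, 47 with Lhcgr and 170 against it, and there 4 of 10 stroma and 8 of 24 matrix genes were called against Lhcgr.

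Fshr gave 138 called genes (1.01%), 10 with it (0.0735%) and 128 against it (0.941%). The cyclins Ccnb1 and Ccnb2 were the members of the proliferation list that moved with Fshr (2 of 32). Comp, an extracellular matrix protein, ran with it from 625 TPM in replicate 8 over a median of 1538 TPM to 2639 TPM in replicate 3 (slope 2.78 ± 0.526 SE, limma adjusted p = 0.0377). Ramp2, an adrenomedullin receptor subunit of endothelial cells, ran against it from 1.32 TPM in replicate 6 to 13.8 TPM in replicate 8 (slope -3.26 ± 0.346 SE, limma adjusted p = 0.0127). Col1a1, Col1a2 and Col3a1 (3 of 10 stroma markers), Acta2, Pdgfrb and Tagln (3 of 5 smooth muscle and pericyte markers), Cdh5 and Esam (2 of 8 endothelial markers) and Col4a1, Col4a2, Nid1 and Nid2 (4 of 24 matrix genes) were called against Fshr. None of these list calls was left without replicate 8 or without replicate 12, where limma called 0 and 4 genes, or under median-ratio scaling, where it called 3. Without replicates 3, 5, 6, 7, 9 and 11 in turn the counts were 6, 33, 58, 85, 5 and 74.

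Mki67, a protein of cycling cells, gave 137 called genes (1.01%), 129 with it (0.949%) and 8 against it (0.0588%). Among the named genes of at least 5 TPM that moved with it, Foxred2, Smc4, Cenpf and Usp1 had the smallest limma p-values. Smc4, a condensin subunit, ran from 33.0 TPM in replicate 11 over a median of 44.5 TPM to 61.6 TPM in replicate 6 (slope 0.65 ± 0.0808 SE, limma adjusted p = 0.0289). Cenpe, Cenpf, Kif11, Kif23, Mcm6 and Top2a of the proliferation list were called with Mki67 (6 of 31). Ccnd2 of the antral granulosa list moved with Mki67 too. Mki67 and these genes were lowest in replicate 11, where long transcripts were low, and Mki67 itself was at 39.4 TPM there against 57.2 to 109 TPM in the other libraries. Leaving out replicate 1, 2, 3, 6 or 12 left 0 called genes each, and leaving out replicate 8 gave 497. Without replicates 5, 7, 9, 10 and 11 in turn the counts were 77, 38, 38, 85 and 265. Median-ratio scaling called 30 genes, 23 with Mki67 and 7 against it.

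Foxl2, Cyp19a1, Cyp17a1 and Gdf9 gave no called gene with limma (0% of 13598 each). At an unadjusted p under 0.05 they had 1071, 623, 869 and 1578 genes, and the smallest adjusted p-values were 0.610 for Foxl2, 0.377 for Cyp17a1 and 0.0552 for Gdf9. No difference between anchors was tested.

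Among 120 pairs of 16 follicle genes, none passed a permutation test after Benjamini-Hochberg adjustment, on 11 libraries and with 100000 resamples, two-sided. Before adjustment 11 pairs had p under 0.05 by Pearson's r and 17 by Spearman's rho. Without replicates 5, 6 and 8 in turn 1, 2 and 1 pairs passed. The receptors and inhibin gave some of the highest values. Inha and Lhcgr had r = 0.822 and rho = 0.873 (permutation p = 0.00105, adjusted p = 0.063), and r was 0.764 without the 2 libraries farthest from the median of Inha. Fshr and Lhcgr had r = 0.791 and rho = 0.864 (permutation p = 0.00195, adjusted p = 0.078), and r was 0.892 without the 2 farthest.

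Inhba and Hmgcs1, the enzyme at the entry of cholesterol synthesis, had r = 0.867 and rho = 0.855 (permutation p = 0.00059, adjusted p = 0.063), and r was 0.808 without the 2 farthest libraries. Cyp17a1 and Star had r = 0.758 and rho = 0.627 (permutation p = 0.00685, adjusted p = 0.194), with replicates 10 and 6 highest for both genes. Star and Kitl had r = 0.761 and rho = 0.773 (permutation p = 0.00808, adjusted p = 0.194). The r of this pair was 0.494 without the 2 libraries farthest from the median of Star. Lhcgr and Amh ran in opposite directions, with r = -0.652 and rho = -0.645 (permutation p = 0.0314, adjusted p = 0.426).

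Immediate-early genes, which growth factors and handling induce within minutes, formed the tightest group. It held 14 genes with a mean correlation of 0.860, 10 of them from the immediate-early list: Fos, Fosb, Junb, Egr1, Egr2, Egr3, Ier2, Zfp36, Klf6 and Ccn1. The promoter sequence just upstream of the RefSeq transcription start (build GRCm38.p6) is shown for 3 of them, because the group moved as a unit and these windows hold a match to a known promoter element. Each is 100 bases, 5′ to 3′ on the gene's strand and ending at the base before the start, with the match in capitals: a CArG box, the site of serum response factor, in Egr2 (chr10:67537769-67537868, plus strand) and Zfp36 (chr7:28379229-28379328, minus strand), and a TATA box in Fos (chr12:85473790-85473889, plus strand).
Egr2: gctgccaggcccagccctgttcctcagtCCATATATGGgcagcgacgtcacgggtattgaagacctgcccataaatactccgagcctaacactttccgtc
Zfp36: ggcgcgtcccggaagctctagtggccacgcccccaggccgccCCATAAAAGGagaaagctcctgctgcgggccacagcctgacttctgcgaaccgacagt
Fos: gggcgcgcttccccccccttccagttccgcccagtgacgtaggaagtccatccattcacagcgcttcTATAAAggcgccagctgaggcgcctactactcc

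RefSeq lists 5 starts for Egr2. A CArG box lies in the windows of 4 of them, but in the window chr10:67537316-67537615 it is another box than the one printed. The window nearest the deposited table's own start of the gene (chr10:67535249-67535548) holds none, so the sequence printed belongs to a downstream start. The matches begin 72 (Egr2), 58 (Zfp36) and 33 (Fos) bases before the start. Windows of 300 bases, 250 before and 50 after a start, were searched on both strands for 10 of the 14 genes. The search in the group left out windows on chromosome 18, which the shares over all symbols did not leave out. No window of Egr1, Egr3 or Ier2 was searched. A CArG box was found in 2 genes, Egr2 and Zfp36, beside 1.81% of all 27025 symbols with a window. TATAAA was found in 4 genes (Ccn1, Fos, Gadd45g and Junb), beside 15.7% of all symbols, and in no gene that held a CArG box. In Junb it begins at the listed start itself, and in Ccn1, Gadd45g and Fos 25, 27 and 33 bases before it. The cAMP response element TGACGTCA was found in none of the 10, beside 2.03% of all symbols. Only exact matches inside these windows were counted. A gene without a match, such as Fos for the CArG box, may hold the element farther from the start or with other letters. A match is a description of the letters and shows no binding.

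The 11 libraries fell apart by level of these genes. Fos was lowest in replicate 7 (86.5 TPM), with a median of 269 TPM and a highest value of 678 TPM in replicate 1. Fosb ran from 3.61 TPM in replicate 7 to 532 TPM in replicate 1, and Egr1 from 180 to 1466 TPM in those same libraries. Egr2 ran from 3.76 TPM in replicate 7 to 75.6 TPM in replicate 9. Replicates 3, 5, 6 and 7 were the low ones for each of the 10 genes of the list in the group, and did not overlap the other 7 libraries. The split was read from these values in a group formed by correlation, so it is a description and carries no test. Summed over the 10 genes, those 4 libraries held 932, 868, 1197 and 723 TPM, and the other 7 held 2217 to 4555 TPM. This order differed in part from that of the stroma and endothelial markers. Replicate 1, the highest for Fos, was the lowest for Cldn5, and replicate 7, the lowest for Fos, was at 89.7 TPM for Cldn5. Replicates 3 and 6 were low in both orders. Of the 22 immediate-early genes tested, 6 correlated above 0.6 with the first component and 0 below -0.6, beside 11.5% and 5.22% of all genes. Klf4, Ier5 and Myc of the same list lay outside the group and were called against Fshr (3 of 22). None of the 22 was called without replicate 8, without replicate 12 or under median-ratio scaling.

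**Figure D4:**
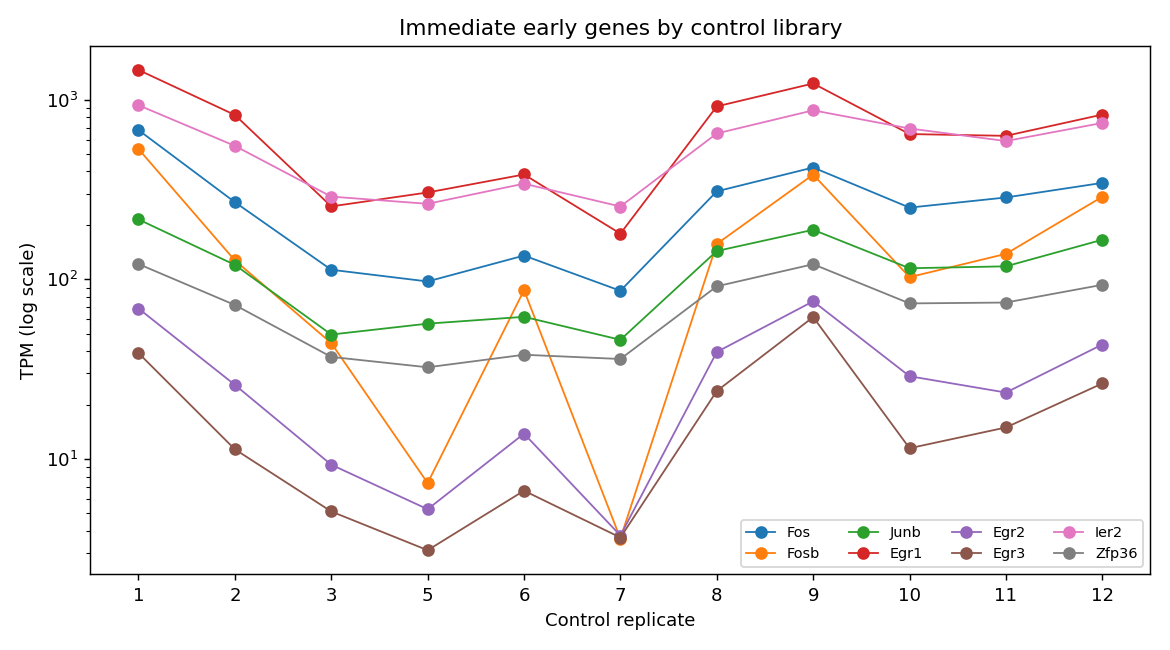
TPM (log axis) of Fos, Fosb, Junb, Egr1, Egr2, Egr3, Ier2 and Zfp36 in each of the 11 control libraries, by replicate number, with lines joining the values of a gene. The 8 lines dip together in replicates 3, 5, 6 and 7 and peak in replicates 1 and 9.

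Most genes were steadier than these. The 9291 genes that averaged 5 TPM or more had a spread that was mostly small: the median SD of log2(TPM + 1) was 0.20, and 5% of genes lay below 0.092 and 5% above 0.69. In 3407 genes (36.7%) the highest library was less than 1.5 times the lowest, and in 210 genes (2.26%) the SD exceeded 1. The 10 steadiest genes of at least 50 TPM were Dvl2, Eny2, Ube2d3, Cers2, Eif1, Cfl2, Oat, Saraf, Arf4 and Tmed2. Dvl2, a relay of Wnt signalling, lay between 63.9 and 70.0 TPM, and Eif1, a translation initiation factor, between 1193 and 1386 TPM. In the 12 ovulation controls, a separate group in a table of other units, 9 of those 10 genes also had an SD below the median and 4 were in the steadiest 10%.

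Among the 25 named genes of largest spread, imprinted growth genes and markers of other cells stood beside gene copies. H19 and Igf2, neighbouring imprinted genes on chromosome 7, were lowest in replicate 3 (2.74 and 0.167 TPM) and highest in replicates 12 (371 and 84.6 TPM) and 8 (278 and 56.9 TPM). Igfbp3, a carrier of insulin-like growth factors, ran from 7.59 TPM in replicate 6 over a median of 120 TPM to 477 TPM in replicate 8. These 3 genes, like Cldn5, were thus highest in replicates 8 and 12. In the ovulation controls Igf2 and Igfbp3 also varied (SD of log2 1.42 and 1.80), whereas Cldn5 did so less (0.29 there and 1.96 here).

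**Figure D5:**
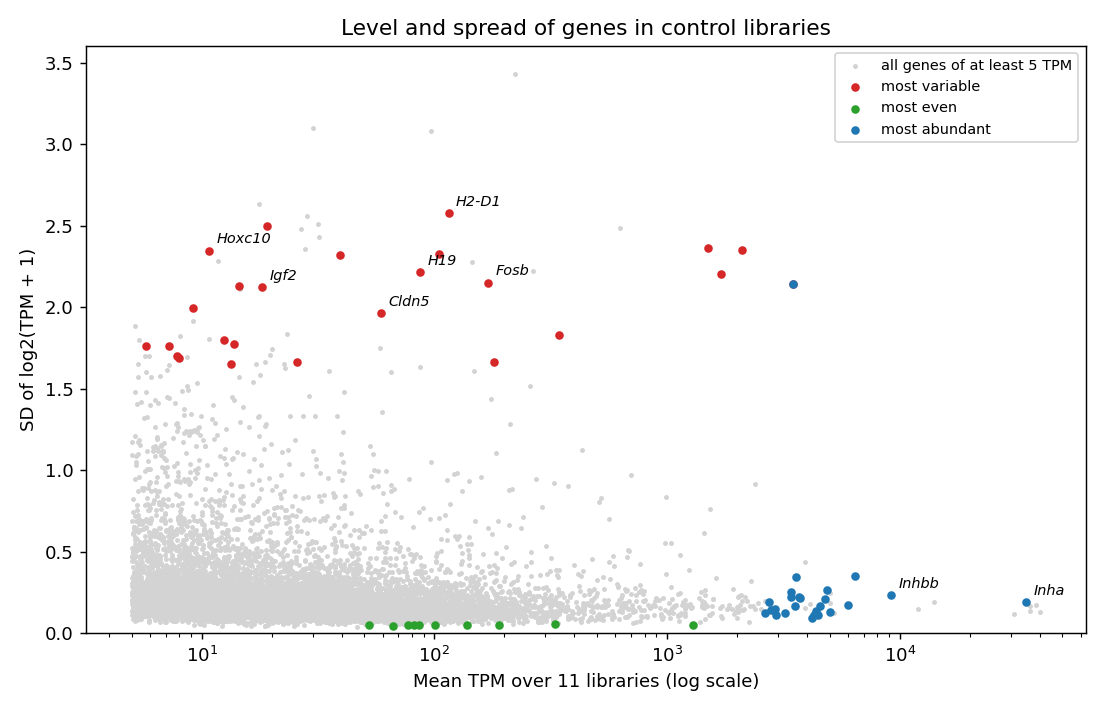
Mean TPM (log axis) against the SD of log2(TPM + 1) over the 11 control libraries for 9291 genes, with the 25 most variable named genes in red, the 10 steadiest in green and the 25 most abundant in blue. The median SD is 0.20, Inha and most other abundant genes lie near it, and H2-D1 has the largest SD of the named genes, 2.58.

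H2-D1, a classical major histocompatibility gene (chr17:35262730-35267499), had the largest SD of the named genes, 2.58. It fell into 2 levels, at 3.85 to 7.27 TPM in replicates 1, 3, 6, 7 and 10 and at 151 to 278 TPM in replicates 2, 5, 8, 9, 11 and 12, with no library between. Pianp split the same libraries, at or below 0.633 TPM in the low 5 and between 8.96 and 16.2 TPM in the other 6. The spread of H2-D1 was as large in the ovulation controls (SD of log2 2.50). Hoxc10 lay at 37.2, 32.0 and 45.2 TPM in replicates 5, 10 and 12 and at or below 2.22 TPM elsewhere. Klk1, a kallikrein, lay at 29.7 and 25.5 TPM in replicates 8 and 12 and at or below 2.98 TPM elsewhere.

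Of these 9291 genes, 31 had such a gap, at least 4-fold between neighbouring values with at least 2 libraries on each side, and the libraries divided in 19 different ways. Rpl26 lay at 329 to 374 TPM in replicates 2, 9 and 11 and at 6.68 to 14.8 TPM in the other 8. Rps2 and the pseudogene Rps2-ps6 were high in the same 3 libraries, with Rps2 at 426 to 595 TPM there and 46.0 to 76.5 TPM elsewhere. Of the 31 genes 14 were annotated as pseudogenes, beside 539 of the 9291 (5.80%). Of the 31-base words in the transcript, 93.9% of those of Rps2-ps6, 48.8% of those of Rps2 and 27.0% of those of Rpl26 also occur in other genes. Rps3a2, outside this rule because 1 library alone was low, lay at 27.2 TPM in replicate 10 and at 2760 to 4997 TPM in the others.

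A gene can also be summed with the genes that share its sequence, which lowers the SD by construction where the relatives are more abundant. For 2 genes, chosen after their values were seen, the sums are given as a description. Rps2-ps13 had an SD of 2.35 on the log2 scale, while the 15 genes of its family together had an SD of 0.26 and held 3509 to 6184 TPM. Rpsa-ps10 had an SD of 2.36, and its 4-gene family had an SD of 0.63 and held 1230 to 4025 TPM. How the authors' counting divided reads between copies was not tested.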

How the data were processed

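RNA of 11 control samples of the maturation window was analysed. A PicoPure kit, poly-T beads and random hexamer priming were used to make the libraries, per the labels' protocols. The submitters' processing notes name Partek, Bowtie2 and HISAT2, and the annotation and counting settings are not given in the sources used here. The maturation values that the authors deposited are TPM, as found from the values: each library summed to 1000000 and 85.0% of values were not whole. The ovulation values that the authors deposited are estimated counts, used only for the spread of log2(CPM + 1) in 12 ovulation controls. The depth of the TPM libraries is unknown. Gene positions are those of the file, on GRCm38, 1-based, and 99.4% of matched symbols have the start of GENCODE M21.

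Genes averaging 1 TPM or more were fitted as log2(TPM + 1) on each of 8 anchor genes (limma 3.58.1, with trend and robust estimation, Benjamini-Hochberg adjustment), and 120 pairs of 16 genes were tested by permutation (scipy 1.17.1, numpy 2.4.6, pandas 2.3.3). A slope understates the change of low genes. The fit was tested on simulated data. Named were the 25 genes of highest mean, the 25 of largest SD among genes of at least 5 TPM, the 10 of smallest SD among genes of at least 50 TPM, the marker lists, the leading genes of each component and correlated group, and the 4 called genes of smallest p with and against each anchor. Symbols of the Gm-number or Rik kind were not named. Other genes, such as Klk1, Rps2 and list members beside the highest, were chosen after their values were seen. The members and lists were chosen with earlier results of these data known. Alternatives were the pseudocount, filters, 2 other scalings, leaving out libraries and joint adjustment over the 8 fits. 7 genes whose sequence matches mitochondrial transcripts held 17.4% of TPM.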

Additional observations from a re-analysis of the deposited data

How the results depend on the processing

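The counts of genes called with an anchor depended on single libraries. Leaving out 1 library at a time gave 0 to 189 genes for Fshr, 0 to 366 for Inha, 5 to 406 for Lhcgr and 0 to 497 for Mki67, and 0 to 2 of the 120 pairs. For Foxl2, Cyp19a1, Cyp17a1 and Gdf9 limma called 0 genes in each such fit. Without the 2 libraries farthest from the anchor's median, 0 genes were called for Fshr and Inha and 1 for Lhcgr and for Cyp17a1. Without both replicates 8 and 12, an alternative chosen after seeing the data, limma called 0 genes for Fshr, Inha, Lhcgr and Mki67. Median-ratio scaling gave 3 (Fshr), 149 (Inha), 30 (Mki67) and 1 (Foxl2), with 0 moving with Fshr and 3 against it. Adjustment over the 8 fits together gave 24 (Fshr), 35 (Inha), 60 (Lhcgr), 29 (Mki67) and 1 each for Foxl2, Cyp17a1 and Gdf9. Without a filter on low values 3 (Fshr), 122 (Lhcgr) and 40 (Mki67) were called, and with a mean of at least 5 TPM 213 (Inha). Rescaling without the mitochondrial-like genes let 2 pairs pass and raised the list sums, to 71462 TPM for granulosa, 474 for oocyte, 22.3 for Sertoli, 14394 for steroid synthesis, 1986 for proliferation, 4382 for cholesterol synthesis, 8720 for hypoxia, 7372 for heat shock, 4008 for ATF4 targets, 1969 for lipid storage, 3197 for ovulatory genes, 2405 for matrix and 4661 for metallothioneins, which follows from its construction. Of the 25 most variable genes, 13 were shared with those of largest median absolute deviation and 14 with those at a pseudocount of 0.1. The first component held 33.4% of the variance of the 500 most variable genes. The cause of the other differences was not tested. For single genes named with an anchor, 391 values kept their call and 217 lost it over these alternatives, and none of these correlations changed sign. No paired analysis was possible because only 1 group was analysed. Since the depth is unknown, no limit of detection can be given.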

Other observations

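Of 24 genes of the ovulatory response 12 had a mean under 1 TPM, beside 9075 of all 22674 genes. The labels of these libraries name no hCG. Among the 12 were Ptgs2, the prostaglandin synthase of ovulation (at most 1.18 TPM), Pgr, the progesterone receptor (at most 0.924 TPM), and Areg, an epidermal growth factor ligand (at most 1.60 TPM). Cebpb, a transcription factor of the same list, was at 941 to 1400 TPM and Adamts1, a protease of the matrix, at 128 to 356 TPM. Of 19 interferon-induced genes 10 had a mean under 1 TPM, and the list summed to 435 to 881 TPM. Ifit1, Mx1 and Rsad2 did not exceed 0.431, 0.290 and 0.611 TPM, while Bst2 lay between 272 and 589 TPM and Ifitm3 between 36.3 and 270.3 TPM.

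Inducible heat shock genes spread more widely than constitutive Hspa8. Hspa1a ran from 176 TPM in replicate 1 to 1182 TPM in replicate 10, and Hspa1b from 281 to 1926 TPM in those same libraries, whereas Hspa8 lay between 832 and 1084 TPM. Replicate 1, the lowest for both inducible genes, was the highest for Fos. Cholesterol synthesis genes, summed over 25, lay between 3117 TPM in replicate 7 and 4275 TPM in replicate 9, with Fdps (379 to 555 TPM) and Hmgcs1 (184 to 299 TPM) among them. Glycolysis enzymes were abundant, with Tpi1 at 1880 to 2639 TPM and Ldha at 670 to 988 TPM, and both were lowest in replicate 11.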
